A study of Mus musculus with 36 samples.

Results

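The node transcripts lost by tail bud stages were 8 genes read by 9 probes, out of 30869 gene symbols and 45281 probes on the array. They are Dynlrb2, Ccno, Hdc, Slc38a8, 3100002J23Rik, 1600029I14Rik, 1700011H14Rik and Tmem132e. Hdc has 2 probes, ILMN_2965903 and ILMN_1256122, which read 1 transcript and are not independent, and each of the other 7 genes has 1 probe. The genes were chosen from earlier results of these same arrays, either because they were higher in a node region at E8.5 or because they were lost after E8.5 in regions that hold neuromesodermal progenitors, the shared precursors of spinal cord and paraxial mesoderm. Their levels in the node regions against the other E8.5 regions sampled, and against the chordoneural hinge, are therefore given as a description with no test. Tests were kept for comparisons that the choice did not make. St1, St5 and CNH did enter the choice on its low side, so tests among them, or of CNH against P-CNH, stand on values that the choice had already held down. P-CNH did not enter the choice but adjoins CNH, so tests against P-CNH are not free of the choice either.

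The arrays followed the primitive streak and the tail bud of wild-type, outbred MF1 mouse embryos while the body axis lengthened, with total RNA from hand-dissected pieces of 1 region pooled for each array. Headfold embryos of E7.5 were cut into a front piece fated to become neural (A) and a back piece that holds the streak (P), and the most posterior end of the streak was taken as a region of its own (PP). Embryos of E8.5, with 2 to 5 somites, gave the caudal lateral epiblast (CLE), the streak at its rostral (St1) and its caudal end (St5), the border of node and streak (NSB) and the rostral node (RN). The tail bud gave tissue behind the chordoneural hinge (P-CNH) at E9.5, E10.5 and E11.5 and the hinge itself (CNH) on these days and at E12.5 and E13.5. Tail bud embryos had 22 to 25 somites at E9.5, 32 to 35 at E10.5, 40 to 45 at E11.5, 50 to 55 at E12.5 and 60 to 63 at E13.5. The 36 arrays covered 16 regions. The 4 regions with 3 arrays were CLE, NSB, E11.5 CNH and E7.5 A, and 12 had 2, each from 6 to 74 pooled pieces. All pieces were mixtures of cell types, and the number of arrays limits the precision of each value.

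The labels assign the arrays to 3 batches of 12. Batch 1 held RN, St1, St5, E10.5 CNH, E10.5 P-CNH and NSB replicates 1 and 2, and it was tied to the other batches by NSB replicate 3 alone. A probe was counted as detected on an array when its detection p-value, set against the negative-control beads of that array, was under 0.01. Between 15481 and 16256 probes were detected on the arrays of batch 1, 11062 to 15388 in batch 2 and 10814 to 16241 in batch 3. The arrays with the fewest were E13.5 CNH replicate 2, with 10814, and CLE replicate 1, with 11062.

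The node is the organiser at the rostral end of the streak. It gives rise to the notochord, and in the mouse its ventral cells carry motile cilia whose beating drives a leftward flow of fluid that sets left against right. Motile cilia need dynein motors, the axoneme that the motors bend, and basal bodies, which form from centrioles. By tail bud stages the streak and node have been replaced by the tail bud, where the chordoneural hinge lies at the caudal end of the notochord.

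The node regions carried most of the markers listed for node and notochord. Of 17 tested, 12 were higher there than in the other E8.5 regions by the threshold used below, and 0 were lower. T (0.32 on the log2 scale), Bhmt2 (1.02), Cer1 (0.38), Pkd2 (0.17) and Foxj1 (0.90) did not pass. Cer1 was detected on 1 of the 5 node arrays. Foxa2, a transcription factor of node and notochord, had a mean of 8.43 on the log2 scale in both RN and NSB, against 4.67 in CLE, 6.22 in St1 and 5.82 in St5. The mean of Noto, a node and notochord transcription factor, was 8.28 in RN and 8.88 in NSB, and that of the signal Shh was 12.01 and 11.36. Nodal, a left-right signal of the node, had means of 10.75 and 10.79. In St1, the highest of the other E8.5 regions for these genes, the means were 5.67 for Noto, 7.78 for Shh and 7.06 for Nodal. All 5 node arrays also detected Foxj1, the master transcription factor of motile ciliogenesis, at 6.07 in RN and 7.00 in NSB. Its means were 6.60 in CLE, 6.64 in E7.5 A and 6.68 in E7.5 P, each above that of RN.

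All values for members are normalised log2 intensities, and a mean is followed by its SD over the 2 or 3 arrays of a region. Dynlrb2, a roadblock-type light chain of cytoplasmic dynein linked to cilia, read 11.56, 11.47 and 11.75 on the NSB arrays and 11.23 and 11.35 on the RN arrays. At E7.5 it stood at 8.42 and 9.84 in P and at 7.90, 7.46 and 7.65 in A. The St1 arrays, of E8.5, read 7.23 and 6.60. These 12 arrays were the ones of the 36 that detected it. Its order of region means was NSB (11.60 ± 0.14), RN (11.29 ± 0.08), P (9.13 ± 1.00), A (7.67 ± 0.22) and St1 (6.91 ± 0.45), with no overlap between the arrays of neighbours in this order. In the remaining 11 regions the probe was undetected, and the 17 tail bud arrays ran from 4.51 through a median of 4.79 to 6.29.

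3100002J23Rik, listed by RefSeq as Fam183b, is a gene of ciliated cells. It read 12.60, 12.41 and 12.62 in NSB and 12.48 and 12.38 in RN, and the arrays of these 2 regions overlapped. Lower, detected values were found in P (9.06 and 9.82), in St1 (8.85 and 7.90) and in A (8.60, 8.12 and 7.92). The St1 and A arrays overlapped. It was detected on the same number of arrays as Dynlrb2, 12, and on none of the 17 from the tail bud, where it ran from 4.43 through 4.79 to 5.68.

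Ccno encodes cyclin O, which takes part in the amplification of centrioles in multiciliated cells. Its values were 9.42, 9.59 and 9.75 in NSB but 6.68 and 7.11 in RN, so that the 2 node regions did not overlap. P, at 7.98 and 8.66, stood between them. Ccno was also detected at the caudal end of the streak, at 7.29 and 7.56 in St5 and at 6.90 and 7.59 in PP, and in St1 at 6.27 and 6.73. St5, PP, RN and St1 overlapped with their neighbours in this order. A, CLE and all 17 tail bud arrays, the latter from 4.49 through 4.93 to 6.18, were below detection, so Ccno was detected on 13 arrays.

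The promoters of 7 of the 8 genes were found in the RefSeq windows of build GRCm38.p6, which are 300 bases long and end shortly after the start site. The promoter of 1600029I14Rik was not among them. Those of the cilium-linked members and of 1700011H14Rik are shown, 5′ to 3′ on the strand of the gene, because the first 3 hold an arm of the X-box (GTTGCC), the motif of the RFX factors of ciliated cells, and the last holds a forkhead core (TGTTTAC), and capitals mark these letters. The positions, counted from the start site, are -51 for Dynlrb2, -67 and -16 for 3100002J23Rik, -219 for Ccno and -224 for 1700011H14Rik.
Dynlrb2 (chr8:116504765-116505064, plus strand): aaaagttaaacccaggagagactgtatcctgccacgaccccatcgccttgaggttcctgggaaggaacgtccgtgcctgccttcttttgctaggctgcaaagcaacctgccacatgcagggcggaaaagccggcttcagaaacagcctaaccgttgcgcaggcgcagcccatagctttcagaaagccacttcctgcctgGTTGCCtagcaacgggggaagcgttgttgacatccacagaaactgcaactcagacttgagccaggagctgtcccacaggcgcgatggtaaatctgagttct
3100002J23Rik (chr11:58801911-58802210, minus strand): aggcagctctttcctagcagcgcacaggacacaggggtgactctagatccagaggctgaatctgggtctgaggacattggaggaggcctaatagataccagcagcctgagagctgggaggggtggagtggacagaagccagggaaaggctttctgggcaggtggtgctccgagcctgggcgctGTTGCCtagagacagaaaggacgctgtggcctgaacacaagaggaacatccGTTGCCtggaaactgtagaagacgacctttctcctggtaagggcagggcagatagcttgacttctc
Ccno (chr13:112987552-112987851, plus strand): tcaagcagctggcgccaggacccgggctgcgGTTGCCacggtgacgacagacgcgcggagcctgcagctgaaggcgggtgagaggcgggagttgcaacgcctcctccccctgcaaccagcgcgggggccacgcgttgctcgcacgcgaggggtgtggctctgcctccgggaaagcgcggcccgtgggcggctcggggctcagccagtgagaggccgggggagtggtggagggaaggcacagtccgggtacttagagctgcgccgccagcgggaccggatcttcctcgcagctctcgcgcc
1700011H14Rik (chr14:49245379-49245678, minus strand): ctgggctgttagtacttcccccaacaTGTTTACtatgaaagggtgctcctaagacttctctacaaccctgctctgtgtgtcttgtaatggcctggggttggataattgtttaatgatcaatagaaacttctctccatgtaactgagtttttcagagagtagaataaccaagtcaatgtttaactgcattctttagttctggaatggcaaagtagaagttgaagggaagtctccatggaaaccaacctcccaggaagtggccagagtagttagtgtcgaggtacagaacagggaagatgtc
Both strands were searched and no match overlapped another. The windows of Hdc, Slc38a8 and Tmem132e hold neither string of letters. Of 32851 RefSeq windows of this length, 4111 hold the X-box arm and 1199 (3.65%) the forkhead core, so that a match is a description of these letters and no more.

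Hdc makes histamine from histidine. Probe ILMN_2965903 read 10.03, 9.96 and 10.83 in NSB and 9.58 and 9.70 in RN, followed by 8.5 and 8.45 in P and 6.46, 7.44 and 6.49 in A. NSB, RN and P did not overlap with one another. Outside these regions it was detected on 7 arrays, namely CLE replicate 1 (7.74), St1 replicate 1 (5.68), both E12.5 CNH arrays (6.50 and 5.98), both E13.5 CNH arrays (7.42 and 8.13) and E11.5 P-CNH replicate 1 (7.97). Of the 9 probes it was thus the one that the tail bud arrays did detect, on 5 of 17, and for Hdc the loss by tail bud stages did not hold on every array. Probe ILMN_1256122 read 7.28, 7.29 and 6.70 in NSB, 6.94 and 6.97 in RN and 5.38 (not detected) and 5.90 in P. These 6 detected arrays, all of them NSB, RN or P, were the ones of the 36 that read it, and E13.5 CNH stood at 5.06 and 4.67.

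Slc38a8 encodes a sodium-coupled amino acid transporter. It was the member detected in every sampled region of E7.5 and E8.5, on 7 of 7 and 12 of 12 arrays. It read 11.38, 11.40 and 11.35 in NSB and 10.94 and 11.00 in RN. St1 (10.02 and 10.06) and P (10.37 and 9.78) overlapped, and were followed by PP (8.69 and 9.15) and CLE (9.39, 8.93 and 7.90), which also overlapped. St5 read 7.40 and 7.20, and A 6.56, 6.90 and 6.17. Every tail bud array was below detection for this probe, from 4.55 through 4.82 to 5.25. This set the sampled regions up to E8.5 apart from those of the tail bud with no overlap.

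1600029I14Rik, a long non-coding RNA, read 10.06, 10.04 and 10.14 in NSB and 9.83 and 10.07 in RN, which overlapped. Outside the node it was detected on 2 arrays, the P arrays, at 6.78 and 7.05. In the tail bud it spanned 4.38 to 4.60 around a median of 4.44.

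1700011H14Rik and Tmem132e had a different order, with RN above NSB. 1700011H14Rik, a protein-coding gene that RefSeq lists as ccdc198, read 9.24 and 8.93 in RN, 7.87 and 7.30 in PP, and 6.37, 6.24 and 6.84 in NSB. These 3 regions did not overlap, and beyond them it was detected on St5 replicate 1 (6.12). Tmem132e, of the TMEM132 family of membrane proteins, read 8.98 and 8.47 in RN, 6.96, 6.99 and 7.58 in A, 6.91 and 6.92 in P and 6.39, 6.28 and 7.42 in NSB. NSB overlapped with P and, through its array at 7.42, with A. It was also detected on both St5 arrays (5.90 and 6.41), on CLE replicate 2 (7.08) and on PP replicate 2 (5.56). Both probes were undetected on the 17 tail bud arrays, though Tmem132e reached 6.30 there.

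**Figure D1:**
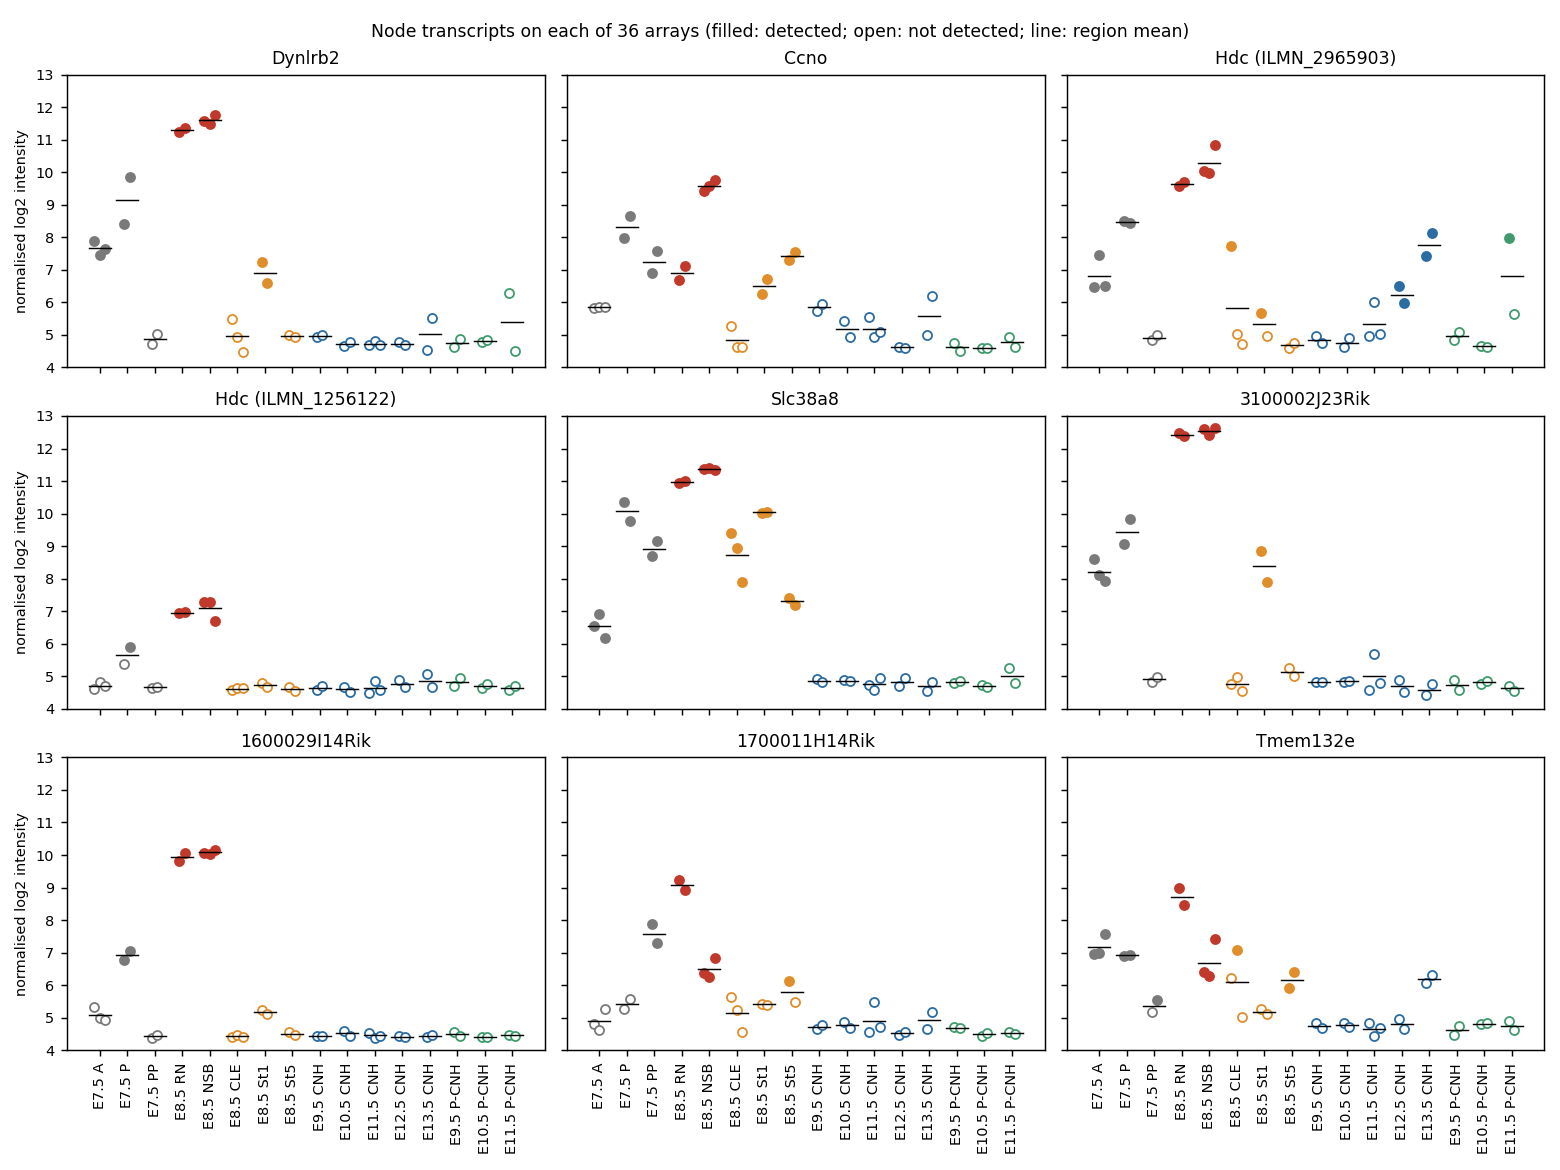
Normalised log2 intensity (y axis) of the 9 member probes in each of the 16 regions (x axis), with 1 point per array, filled where detected, and a line at the region mean. Node arrays (red) of Dynlrb2 lie between 11.23 and 11.75 and its 17 tail bud arrays (blue for CNH, green for P-CNH) between 4.51 and 6.29, all open.

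The contrasts that chose the members came out as follows. RN and NSB together stood above the mean of St1, St5 and CLE for all 9 probes, by 6.43 on the log2 scale for 3100002J23Rik, 5.86 for Dynlrb2 and 4.89 for Hdc probe ILMN_2965903. The difference was 2.49 for Slc38a8, 2.42 for 1700011H14Rik, 2.07 for Tmem132e and 2.03 for Ccno. Of the 7 St1, St5 and CLE arrays, 2 detected 3100002J23Rik, 2 detected Dynlrb2, 2 detected Hdc probe ILMN_2965903 and 1 detected 1700011H14Rik, so these differences rest mainly on values near background. Since no St1, St5 or CLE array detected 1600029I14Rik or Hdc probe ILMN_1256122, their folds are lower limits, found by raising each undetected array to the lowest detected value of that array. The limits were at least 16.8-fold for 1600029I14Rik and at least 2.12-fold for the Hdc probe. Against CNH, NSB was at least 90.1-fold higher for 3100002J23Rik, 46.7-fold for Dynlrb2, 40.1-fold for Slc38a8, 16.3-fold for 1600029I14Rik and 11.6-fold for Ccno. The limit was 2.06-fold for Hdc probe ILMN_1256122, 1.56-fold for Tmem132e and 1.35-fold for 1700011H14Rik, and Hdc probe ILMN_2965903, detected on 4 of 11 CNH arrays, differed by 5.22 on the log2 scale. Between the node regions, RN minus NSB was 2.78 for 1700011H14Rik, 2.39 for Tmem132e and -2.61 for Ccno, and between -0.42 and -0.07 for the other 6 probes. Fitted differences are corrected for batch, so they can depart from differences between means.

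Hence the group held more than 1 pattern. Over the 16 region means, Dynlrb2 and 3100002J23Rik had the same Pearson r, 0.989, as 1600029I14Rik and Hdc probe ILMN_1256122, whereas the lowest of the 36 pairs was Hdc probe ILMN_2965903 with 1700011H14Rik, at 0.477. The 2 probes of Hdc gave 0.876. The genes of other symbols closest to Dynlrb2 were 1700009P17Rik (r of 0.995), 3100002J23Rik (0.989) and LOC381738 (0.986), and 1700009P17Rik (0.989) and LOC381738 (0.967) were among the 3 closest to 3100002J23Rik as well. Ccno was most like Zfp369 (0.898), Cdkl2 (0.882) and Gng4 (0.847). Hdc probe ILMN_2965903 was most like Ccdc65 (0.976), Ccdc19 (0.971) and 1700088E04Rik (0.962). Slc38a8 was closest to Wnt8a (0.971), a Wnt ligand of the streak, then to Ephx2 (0.954) and Upp1 (0.947). For 1600029I14Rik the closest were Armc3 (0.994), Akap14 (0.990) and the Hdc probe (0.989). The closest to 1700011H14Rik were Ppl (0.879), Liph (0.862) and LOC100047808 (0.860), and to Tmem132e they were Grasp (0.932), Cldn11 (0.913) and Mfsd10 (0.897). These values describe likeness over 16 points that share arrays and carry no test.

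The streak outside the node was compared at its rostral end, next to the node, and its caudal end. Both ends had entered the choice on its low side, though the choice did not set them against each other. Counts of calls are given as a description, and nothing is read from them. St1 was higher than St5 for the cilium-linked genes 3100002J23Rik and Dynlrb2 and for the transporter Slc38a8. 3100002J23Rik was at 8.85 and 7.90 in St1 and undetected in St5, at 5.26 and 5.02, a difference of 3.23 ± 0.323 (SE, adjusted p = 7.71e-07) and at least 6.56-fold. Slc38a8 differed by 2.75 ± 0.326 (adjusted p = 8.38e-06), or 6.70-fold. Both St1 arrays lay above both St5 arrays for each of these genes. Dynlrb2 differed by 1.94 ± 0.45 (adjusted p = 0.0126) and at least 2.38-fold, with St5 at 4.99 and 4.95. 1600029I14Rik passed as well (0.66 ± 0.168, adjusted p = 0.0268), but no array of either region detected it, and this call is not read as a difference. In bulk pieces, fewer cells of a type and less RNA per cell cannot be told apart.

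In limma, with 1 model for all arrays, 4 of the 9 probes passed the threshold (a fold change of 1.5 or more with an adjusted p no higher than 0.05) as higher in St1, 3 of them detected there, and 0 as lower, against 3.27% of the 21712 probes tested. An unadjusted p under 0.05 was reached by 6 member probes and by 1955 of all 21712. The median difference was 0.65 for the members and 0.01 for all probes. Ccno (-0.92, adjusted p = 0.237) and Tmem132e (-0.98, adjusted p = 0.312) lay on the St5 side but did not pass, and 1700011H14Rik (-0.38) and the Hdc probes (0.65 and 0.13) had an adjusted p of 1. The p-values measure the spread between pools of pieces. Within batch 1, which held all 4 arrays, 2706 of the 21712 probes passed and so did 7 of the 9 member probes, those beside the 4 above being Ccno (-0.92, adjusted p = 0.0096), Tmem132e (-0.98, adjusted p = 0.00389) and Hdc probe ILMN_2965903 (0.65, adjusted p = 0.0375).

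The Dynlrb2 call between St1 and St5 was lost without St1 replicate 1 (1.62, adjusted p = 0.245), St5 replicate 1 (1.96, 0.0938) or St5 replicate 2 (1.92, 0.126), which left 2 probes passing, and that of 1600029I14Rik was lost without any of the 4 arrays (adjusted p of 0.331 and 0.104 without St1 replicates 1 and 2, 0.134 and 0.28 without St5 replicates 1 and 2). Tmem132e passed without CLE replicate 3 (adjusted p = 0.0304). The 17 measured node and notochord genes summed to 8450 and 9860 on a linear scale in St1, with 12 and 14 detected, and to 9290 and 9350 in St5, with 7 and 10 detected. T, a gene of the whole streak, was the most abundant on all 4 arrays. Lefty1 (mean of 7.45 in St1 and 4.98 in St5), Foxd4 (6.39 and 4.74), Nodal (7.06 and 5.83), Noto (5.67 and 4.61) and Chrd (8.23 and 7.25) were higher in St1, as were the members that passed. Shh (7.78 and 7.73) and Foxa2 (6.22 and 5.82) were closer, and Gdf1 (10.56 and 11.17) and Bhmt2 (7.95 and 8.64) were higher in St5. Their part in the result was not tested.

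The E7.5 embryo was compared front against back, before the stage that chose the members. P was higher than A for Slc38a8, Ccno, 1600029I14Rik and 3100002J23Rik. Slc38a8 was at 10.37 and 9.78 in P against 6.17 to 6.90 in A, which gave A minus P of -3.48 ± 0.304 (adjusted p = 6.81e-08), 11.2-fold. Ccno, undetected in A at 5.82, 5.85 and 5.86, differed by -2.47 ± 0.319 (adjusted p = 2.61e-05), at least 4.80-fold. 1600029I14Rik, also undetected in A, differed by -1.81 ± 0.157 (adjusted p = 6.34e-08), at least 1.81-fold. For these 3 genes both P arrays lay above all 3 A arrays. 3100002J23Rik differed by -1.16 ± 0.3 (adjusted p = 0.0354), 2.24-fold, with A detected on all arrays. Hdc probe ILMN_1256122 passed as well (-0.91 ± 0.181, adjusted p = 0.00418), but was detected on 1 of the 5 arrays, P replicate 2, at 5.90, and this call is not read as a difference.

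So 0 of the 9 probes passed as higher in A and 5, that Hdc probe among them, as higher in P, against 2.73% of all probes in either direction. An unadjusted p under 0.05 was reached by 7 in limma, and by 10.8% of all probes, and the median of A minus P was -1.46 for the members and 0.04 for all probes. Dynlrb2 (-1.46, adjusted p = 0.0706), Hdc probe ILMN_2965903 (-1.46, adjusted p = 0.317), 1700011H14Rik (-0.53, adjusted p = 0.614) and Tmem132e (0.22, adjusted p = 0.975) did not pass. Tmem132e, with A at 6.96 to 7.58 and P at 6.91 and 6.92, was the member whose mean was higher in A. Within batch 2, which held both P arrays and 2 A arrays, 3 member probes passed, against 1.75% of all probes, namely Slc38a8 (-3.34, adjusted p = 0.00169), Ccno (-2.49, adjusted p = 0.0121) and 1600029I14Rik (-1.74, adjusted p = 0.00971).

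The P arrays differed from each other, with 13073 probes detected on replicate 1 and 15388 on replicate 2, and Dynlrb2 at 8.42 and 9.84. Without P replicate 2 the count was 3, as 3100002J23Rik (-0.78, adjusted p = 0.355) and Hdc probe ILMN_1256122 (-0.65, adjusted p = 0.113) no longer passed, and 3100002J23Rik was also lost without A replicate 2 (adjusted p = 0.0995) or A replicate 3 (adjusted p = 0.111). The 3100002J23Rik call was lost in addition with cyclic loess (-0.93, adjusted p = 0.391), with a replicate block (-1.11, adjusted p = 0.0664) and with no filter on detection (-1.16, adjusted p = 0.0547). Dynlrb2 passed without P replicate 1 (-2.17, adjusted p = 0.0152), E11.5 P-CNH replicate 1 or 2 (adjusted p = 0.0157 for each) or CLE replicate 1 (adjusted p = 0.0413). The 7 visceral endoderm markers summed to 2100, 2160 and 10900 in A, where Ttr, Amn and Ttr were the most abundant, and to 10800 and 6070 in P, where Amn and Apoa1 were. The 4 somite markers summed to 940, 1180 and 751 in A, with Tcf15 the most abundant, and to 2260 and 2960 in P, with Meox1. The 3 neural plate markers summed to 4570, 5140 and 1840 in A and 2960 and 4330 in P, with Irx3 the most abundant. The 17 node and notochord genes summed to 13600, 13400 and 12300 in A, with Foxd4 the most abundant, and to 13500 and 13800 in P, with T. Nodal (mean of 7.67 in P and 5.43 in A) and Noto (6.48 and 5.47) were higher in P, Shh (8.75 and 10.54), Foxa2 (7.00 and 7.85) and Foxd4 (9.70 and 12.54) were higher in A, and Foxj1 was close (6.68 and 6.64). The part of these markers in the result was not tested.

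At the posterior end of the streak at E7.5, 4 of the genes found in P fell below detection. Dynlrb2 (4.72 and 5.02), 3100002J23Rik (4.82 and 4.99), 1600029I14Rik (4.39 and 4.46) and Hdc probe ILMN_2965903 (4.83 and 5.00) were undetected on both PP arrays and detected on both P arrays. PP minus P was -4.34 ± 0.366 for 3100002J23Rik (adjusted p = 3.9e-07), at least 13.9-fold lower in PP. Dynlrb2 differed by -4.25 ± 0.511 (adjusted p = 4.94e-05), at least 11.2-fold, and 1600029I14Rik by -2.43 ± 0.191 (adjusted p = 1.53e-07), at least 2.41-fold. 1700011H14Rik went the opposite way. It was at 7.87 and 7.30 in PP and undetected in P at 5.28 and 5.57, a difference of 2.17 ± 0.373 (adjusted p = 0.00384) and at least 2.88-fold higher in PP.

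These 4 of 9 probes, 1 higher and 3 lower in PP, compare with 0.792% of all probes. All 9 had an unadjusted p under 0.05, as had 2276 of the 21712 probes tested, and the median was -1.67 for the members and 0.01 for all probes. Hdc probe ILMN_1256122 (-0.92, adjusted p = 0.0516), Hdc probe ILMN_2965903 (-2.90, at least 7.11-fold, adjusted p = 0.071), Tmem132e (-1.67, adjusted p = 0.0924), Ccno (-1.06, adjusted p = 0.29) and Slc38a8 (-1, adjusted p = 0.293) were lower in PP but did not pass. Slc38a8 was detected in both regions. PP was in batch 3 and P in batch 2, so no value within a batch can be given, and region and batch are told apart here through the regions that the batches share.

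1700011H14Rik lost its call without PP replicate 1 (1.89, adjusted p = 0.102). Hdc probe ILMN_2965903 passed without CLE replicate 1 (-3.42, adjusted p = 0.00371), CLE replicate 3 (-3.04, 0.0395) or either E11.5 P-CNH array (-2.90, 0.0229), Tmem132e without CLE replicate 2 (-1.53, 0.0375) or 3 (-1.83, 0.00146), and Hdc probe ILMN_1256122 without P replicate 1 (-1.18, 0.02), A replicate 2 (-0.93, 0.0441) or 3 (-0.90, 0.0389), E11.5 CNH replicate 2 (-0.94, 0.0439), either E11.5 P-CNH array (-0.92, 0.0455) or either E13.5 CNH array (-0.97, 0.0277). The 7 visceral endoderm markers summed to 37700 and 18000 in PP, where Ttr was the most abundant and all 7 were detected, and to 10800 and 6070 in P, with 5 detected. The 3 neural plate markers, with Irx3 the most abundant, summed to 380 and 381 in PP and to 2960 and 4330 in P, and the 4 somite markers, with Meox1 the most abundant, to 292 and 697 in PP and to 2260 and 2960 in P. Both lists were lower in PP, as were most members. Of the 17 node and notochord genes, 7 and 10 were detected in PP, where they summed to 9880 and 18500, and 14 on each P array, where they summed to 13500 and 13800, with T the most abundant in both. Shh (5.32 and 5.25) and Noto (4.66 and 4.60) were undetected in PP, and in P they stood at 8.76 and 8.74 and at 6.57 and 6.40. Foxa2 was detected in PP (6.40 and 6.48, against 6.93 and 7.07 in P), as was Foxj1 (6.05 and 6.13, against 7.06 and 6.30), Nodal was detected on PP replicate 2 (5.95, against 7.88 and 7.46), and Bhmt2 was higher in PP (8.5 and 8.20, against 7.10 and 7.54). The part of these markers in the result was not tested.

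Within the tail bud, CNH was set against P-CNH at E9.5, E10.5 and E11.5. The members had been chosen for loss in regions that include CNH, so low CNH values follow from the choice, and nothing is read from the count of calls. Of the 9 probes, 8 were detected on none of the arrays of either region at these stages, and Hdc probe ILMN_2965903 was detected on E11.5 P-CNH replicate 1 alone. In limma 0 probes passed in either direction, against 0.599% of all probes, and 1, Ccno, had an unadjusted p under 0.05 (0.72 ± 0.205, adjusted p = 0.201), as had 4.12% of all probes. The other 8 had an adjusted p of 1. The median difference was -0.01 for the members and 0 for all probes. Within batches 1, 2 and 3 the count was 0 each time (2.58%, 0.35% and 0% of all probes), and a test of whether the difference changed with stage gave an adjusted p of 1 for each member probe. With both sides under detection, a difference between them was not measurable for 8 of the 9 probes.

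E7.5 regions, sampled before the stage that chose the genes, were set against the P-CNH of later embryos. P-CNH lies next to CNH, where the members were chosen to be low, so its low values are not independent of the choice. Nothing is read from the count of calls. The mean of A, P and PP was higher for Slc38a8, 3100002J23Rik, Ccno, Dynlrb2 and Tmem132e, and P-CNH was undetected for each on all 6 arrays. For Slc38a8 the E7.5 arrays ran from 6.17 to 10.37 and did not overlap with P-CNH, and the difference was 3.62 ± 0.236 (adjusted p = 9.45e-11), at least 5.98-fold. For 3100002J23Rik it was 2.68 ± 0.234 (adjusted p = 1.11e-08), at least 3.00-fold, with 5 of 7 E7.5 arrays detected, those of A and P. Ccno differed by 2.37 ± 0.248 (adjusted p = 1.86e-07), at least 2.30-fold and with 4 of 7 detected (P and PP). Dynlrb2 differed by 2.15 ± 0.326 (adjusted p = 3.2e-05), at least 2.45-fold and with 5 of 7 detected (A and P). The undetected region, A for Ccno and PP for Dynlrb2 and 3100002J23Rik, is not read as higher than P-CNH.

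Tmem132e, detected on 6 of 7 E7.5 arrays, differed by 1.44 ± 0.283 (adjusted p = 0.00059), at least 1.47-fold. 1700011H14Rik passed (1.22 ± 0.238, adjusted p = 0.000582), but was detected in PP alone, and with a lower limit of 1.02-fold this call is not read as a difference of E7.5 as a whole. With a background offset of 100 in place of 16 neither passed (0.53 and 0.46, under the fold threshold). 1600029I14Rik passed too (0.97 ± 0.122, adjusted p = 2.82e-06), but was detected in P alone and has a lower limit under 1, so this call is not read as a difference, and it was lost with cyclic loess (0.58) and with the offset of 100 (0.33). In all, 7 of 9 probes passed as higher at E7.5 and 0 as lower, in a comparison that called 21.7% of all probes. An unadjusted p under 0.05 in limma was reached by 8 of the 9 and by 35.3% of all probes. The median was 1.44 for the members and 0.04 for all probes. Hdc was the exception. Probe ILMN_2965903 (0.72, adjusted p = 0.286) did not pass in this model, but did with the BeadChip as a random block (1.42, adjusted p = 0.0269) and without the batch term (1.25, adjusted p = 0.0193), so its call turns on how batch is handled. Probe ILMN_1256122 (0.45, adjusted p = 0.0218) stayed under the fold threshold.

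Within batch 3, which held A replicate 3, both PP arrays and 3 P-CNH arrays but no P array, 1 of 9 probes passed, 3100002J23Rik (1.80, adjusted p = 0.0459), against 1.81% of all probes, and 7 of 9 lay above 0. The exceptions there were the Hdc probes, at -0.25 and -0.11. The 5 gut endoderm markers summed to 23900, 22800 and 31800 in A, 17900 and 22000 in P and 31600 and 21300 in PP, with Spink3 or Cldn6 the most abundant, and to 942 and 455 in E9.5 P-CNH, 1150 and 858 at E10.5 and 4220 and 3490 at E11.5, with Cldn6 the most abundant. The 5 blood markers went the opposite way, with 943, 139 and 146 in A, 296 and 174 in P and 225 and 217 in PP, and 7270 and 4040, 23900 and 19800, and 10600 and 34800 in P-CNH of E9.5, E10.5 and E11.5, where Hbb-y was the most abundant. The 7 visceral endoderm markers summed to between 2100 (A replicate 1) and 37700 (PP replicate 1) on the E7.5 arrays and to between 227 and 489 in P-CNH, and the 3 neural plate markers to between 380 and 5140 at E7.5 and between 129 and 409 in P-CNH. Ttr, Amn or Apoa1 and, for the neural plate, Irx3 were the most abundant at E7.5. The part of these markers in the result was not tested.

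**Figure D2:**
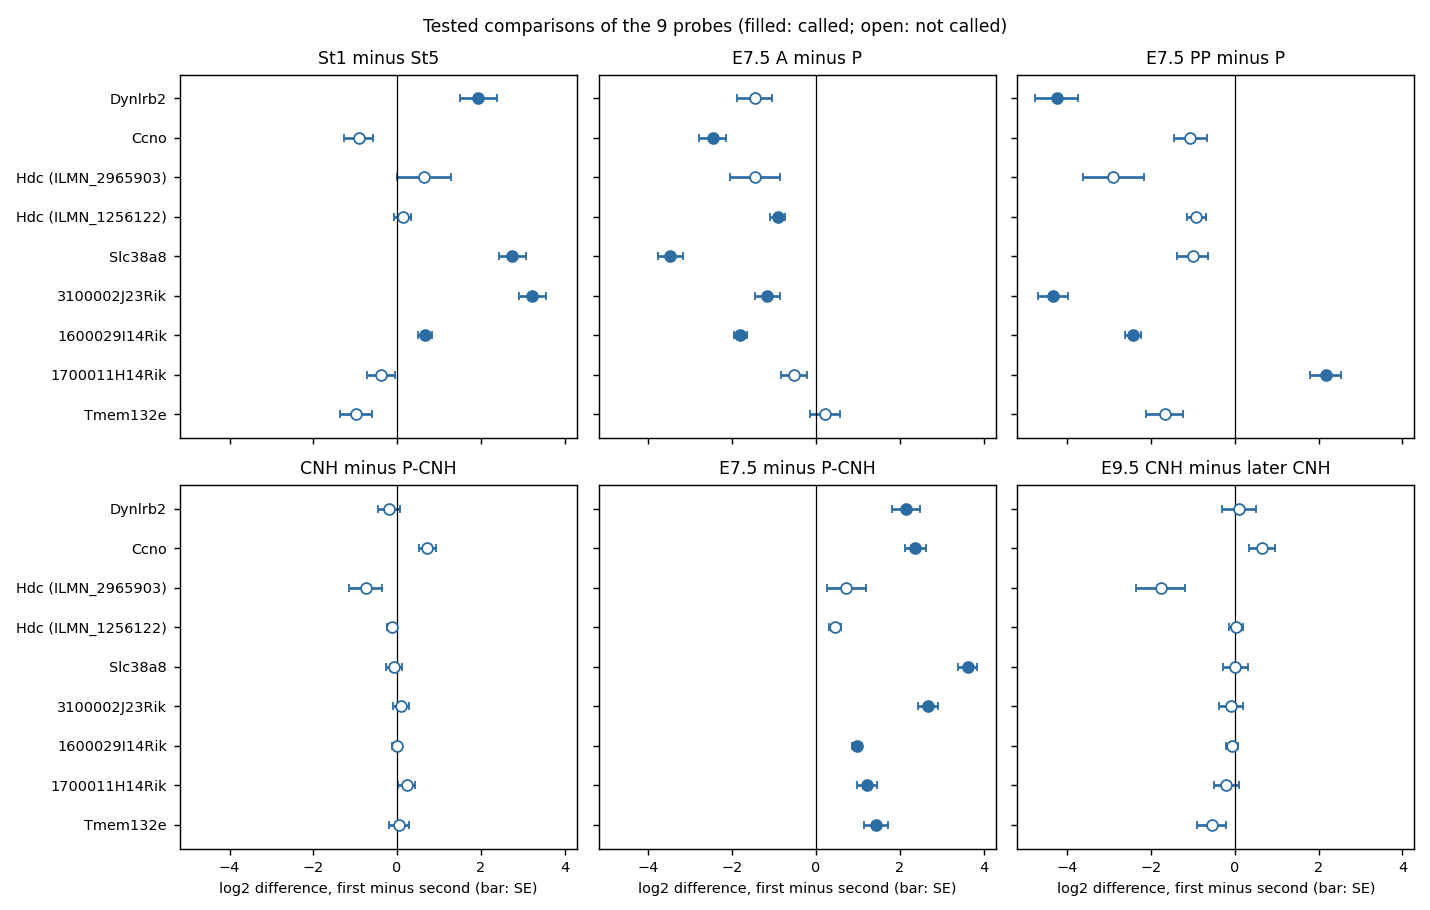
Fitted log2 difference (x axis, first region minus second, bar: SE) of the 9 member probes (y axis) in the 6 tested comparisons, filled where called and open where not. 3100002J23Rik is at 3.23 in St1 minus St5, -1.16 in A minus P, -4.34 in PP minus P and 2.68 in E7.5 minus P-CNH.

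The last comparison set E9.5 CNH against the CNH of E10.5 to E13.5, all of which had entered the choice on its low side. Of the members, only Hdc had CNH arrays with a detected value. Probe ILMN_2965903 was at 4.97 and 4.74 at E9.5, 4.62 and 4.90 at E10.5, 4.97, 6.01 and 5.04 at E11.5, all undetected, and then at 6.50 and 5.98 at E12.5 and 7.42 and 8.13 at E13.5, all detected. The E12.5 arrays overlapped with E11.5, and those of E13.5 lay above the other CNH arrays after normalisation. The deposited intensities did not rise from E12.5 (140.4 and 147.1) to E13.5 (117.2 and 98.35), and E13.5 replicate 2, with the highest normalised value, was the array with the fewest detected probes, 10814, and the highest limit of detection, 7.19. E9.5 minus later CNH was -1.77 ± 0.582, which did not pass (adjusted p = 0.066). The second probe, ILMN_1256122, was undetected at 4.88 and 4.66 at E12.5 and at 5.06 and 4.67 at E13.5.

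In limma 0 of the 9 probes passed, against 7.74% of all probes. An unadjusted p under 0.05 was reached by 2, Hdc probe ILMN_2965903 and Ccno (0.64, adjusted p = 0.228), and by 4721 of the 21712 probes. The median was -0.07 for the members and 0.06 for all probes. Hdc probe ILMN_2965903 passed within batch 2 (-1.62, adjusted p = 0.0316), where 14.9% of all probes did, and without E13.5 CNH replicate 1 (-2.10, adjusted p = 0.023), CLE replicate 1 (-1.46, adjusted p = 0.0472) or either E11.5 P-CNH array (-1.77, adjusted p = 0.0251), each of which moved the count from 0 to 1. The 5 surface ectoderm markers summed to 296 and 320 in E9.5 CNH, where Grhl3 was the most abundant, 498 and 449 at E10.5, 824, 455 and 1010 at E11.5 and 1690 and 1620 at E12.5, with Cldn4 the most abundant, and 4210 and 4260 at E13.5, with Krt14. E11.5 P-CNH replicate 1, the further tail bud array with detected Hdc, had 2280 and its replicate 2 had 1270. The 5 gut endoderm markers summed to 1540 and 1510 in E9.5 CNH, with Foxa1 the most abundant, and to 4530 and 4470 at E13.5, with Cldn6. Between these stages the sums were 3020 and 2580 at E10.5, 2780, 2250 and 2360 at E11.5 and 3820 and 3000 at E12.5. The 4 somite markers summed to 707 and 662 at E9.5, with Tcf15 the most abundant, and to 1910 and 1630 at E13.5, with Meox1. They were already at 1200 and 1160 at E10.5 and at 1350, 1710 and 1410 at E11.5, and stood at 1430 and 860 at E12.5. The part of these markers in the Hdc values was not tested.

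**Figure D3:**
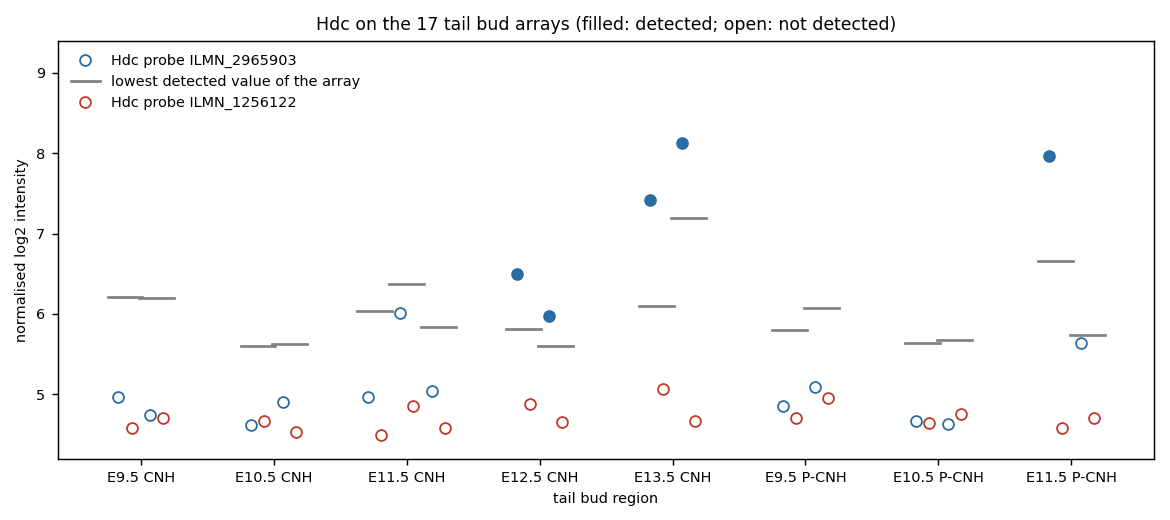
Normalised log2 intensity (y axis) of the Hdc probes on each of the 17 tail bud arrays by region (x axis), filled where detected, with a grey line at the lowest detected value of the array. Probe ILMN_2965903 is detected on 5 arrays, with its highest value, 8.13, at E13.5, and probe ILMN_1256122 on 0.

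To place the members among genes of like function, fixed lists were read in the contrasts that chose them, RN and NSB against the other E8.5 regions and NSB against CNH. Across all tested probes, 3.54% were higher and 1.05% lower in the node regions, and 5.01% were higher and 4.89% lower in NSB than in CNH. Of all listed genes, 38 passed in the node contrast and 36 in NSB against CNH. Within batch 1 these counts were 40 (there without CLE) and 48, and within batch 3, which held 1 NSB array, the second was 8. Of all probes, 8.8%, 19.7% and 0.557% passed in these fits in either direction. An unadjusted p under 0.05 was reached by 2353 of the 21712 probes in the node contrast and by 4557 in NSB against CNH. Where some arrays of a region did not detect a gene, the size of its difference rests in part on values near background.

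Of 27 motile cilium genes listed, 20 had a probe under the symbols searched and 15 were tested. Fam183b, listed but not found under that symbol, is the member 3100002J23Rik, and the counts of this list leave it out. Of the 15, 10 were higher in the node regions and 0 lower there. An unadjusted p under 0.05 was reached by 11, and the median was 2.34 against -0.04 for all probes. NSB against CNH gave 10 higher genes and 0 lower, with 11 at an unadjusted p under 0.05 and a median of 2.38 against -0.03. Pifo, a ciliary protein, was higher in the node regions by 4.73 ± 0.252 (adjusted p = 3.68e-12), Tekt1, a filament protein of the axoneme, by 4.08 ± 0.309 (adjusted p = 1.5e-09), and Spag6, of the central pair, by 3.69 ± 0.183 (adjusted p = 1.03e-12, at least 5.90-fold). Pifo was detected on 2 and Tekt1 on 5 of the 7 other E8.5 arrays. No CNH array detected Pifo or Rsph1, a radial spoke protein, which were at least 24.1-fold higher in NSB each (5.51 ± 0.363, adjusted p = 1.69e-10, and 5.47 ± 0.471, adjusted p = 1.39e-08). Tekt1, detected on 4 of 11 CNH arrays, differed there by 4.62 ± 0.445 (adjusted p = 8.54e-08). The other 5 tested genes, Rfx2 (0.29), Ccdc40 (0.86), Lrrc6 (0.77), Lrrc50 (0.67) and Hydin (0.37), did not pass in NSB against CNH.

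Of 14 genes of centriole amplification, the process of Ccno, 8 were tested, and 0 passed in either contrast in limma, with 0 and 1 at an unadjusted p under 0.05 and medians of -0.01 and -0.06. Mcidas had no probe, and Gmnc, Cdc20b, Ccdc67, Stil and Trp73 had none that was tested, so the count says nothing of these genes. Among 15 cytoplasmic dynein subunits, the partners of Dynlrb2, 3 were higher and 1 lower in the node regions, and 2 higher and 2 lower in NSB than in CNH, with medians of 0.05 and 0.04. Those higher in the node regions were Dync2h1 (0.80 ± 0.123, adjusted p = 8.59e-05), Dync2li1 (0.78 ± 0.174, adjusted p = 0.00598) and Wdr34 (0.76 ± 0.145, adjusted p = 0.0011), of the dynein-2 motor of cilia, of which Wdr60 (0.52, adjusted p = 0.194) and Tctex1d2 (0.44, adjusted p = 0.157) did not pass. Dync2li1 (1.10 ± 0.251, adjusted p = 0.0047) and Wdr34 (0.77 ± 0.208, adjusted p = 0.0183) were also higher in NSB than in CNH. The mean of Wdr34 was 9.76 in NSB and 9.91 in E13.5 CNH. Dync1i1, a dynein-1 intermediate chain, was lower in both, with -1.01 ± 0.197 (adjusted p = 0.00151, at least 1.46-fold) and -3.45 ± 0.283 (adjusted p = 6.08e-09, at least 6.97-fold), and Dync1li2 was lower than in CNH (-1.13 ± 0.26, adjusted p = 0.00497). Dynlrb1, the paralogue of Dynlrb2, differed by 0.06 (adjusted p = 1) and -0.44 (adjusted p = 0.442).

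Few relatives of the other members passed. Of 11 histamine handling genes, 3 were tested, and 0 passed in the node contrast (1 at an unadjusted p under 0.05, median 0.21). Abp1, which breaks histamine down, was higher in NSB than in CNH (1.14 ± 0.344, adjusted p = 0.0352, median of the list 0.17) but detected on 1 of 3 NSB arrays. Its mean was 5.83 in NSB and 6.04 in E13.5 CNH, and no CNH array detected it. Of 10 Slc38 family genes, 8 were tested and 0 passed in the node contrast (2 at an unadjusted p under 0.05, median 0.07). Slc38a3 was higher in NSB than in CNH (1.45 ± 0.351, adjusted p = 0.00786, median of the list 0), detected on 1 of 3 NSB arrays and 2 of 11 CNH arrays. Its mean was 5.70 in NSB, 6.97 in E13.5 CNH and between 4.68 and 5.12 in CNH of the other stages, so NSB was not above CNH at every stage. Of 4 Tmem132 family genes, 2 were tested and 0 passed in the node contrast (1 at an unadjusted p under 0.05, median -0.13), and Tmem132c was lower in NSB than in CNH (-1.46 ± 0.215, adjusted p = 4.15e-05, median of the list -0.71).

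Most of the tested node and notochord genes were higher in the node regions, and part of them were still detected in the CNH. Of 19 listed, 17 were tested, of which 12 were higher and 0 lower in the node regions (15 at an unadjusted p under 0.05, median 2.83), and 8 were higher and 0 lower in NSB than in CNH (10 at an unadjusted p under 0.05, median 1.27). Foxd4 (5.51 ± 0.2, adjusted p = 4.49e-15), Nodal (4.98 ± 0.158, adjusted p = 5.91e-16), Shh (4.87 ± 0.345, adjusted p = 4.95e-10), Noto (3.61 ± 0.357, adjusted p = 1.36e-07) and Foxa2 (2.93 ± 0.269, adjusted p = 3.86e-08) were higher in the node regions. Of the 7 other E8.5 arrays, Foxd4 was detected on 2, Nodal on 4, Shh on 4, Noto on 1 and Foxa2 on 3. Foxj1 did not pass there (0.90 ± 0.266, adjusted p = 0.0566), but was higher in NSB than in CNH (1.51 ± 0.384, adjusted p = 0.0111). Foxd4 (5.97 ± 0.288, adjusted p = 6.63e-13, at least 27.4-fold), Nodal (5.39 ± 0.228, adjusted p = 9.16e-14, detected on 3 of 11 CNH arrays) and Dand5, a Nodal antagonist (2.57 ± 0.203, adjusted p = 3.23e-09, at least 4.06-fold), fell between NSB and CNH, as did Foxa2 (1.78 ± 0.388, adjusted p = 0.0031). Shh (0.92, adjusted p = 0.314) and Noto (1.05, adjusted p = 0.247) did not pass. The CNH arrays thus detected notochord genes, Foxa2 and Noto on 10 of 11 and Shh on 11 of 11, where 8 of the 9 member probes were undetected.

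**Figure D4:**
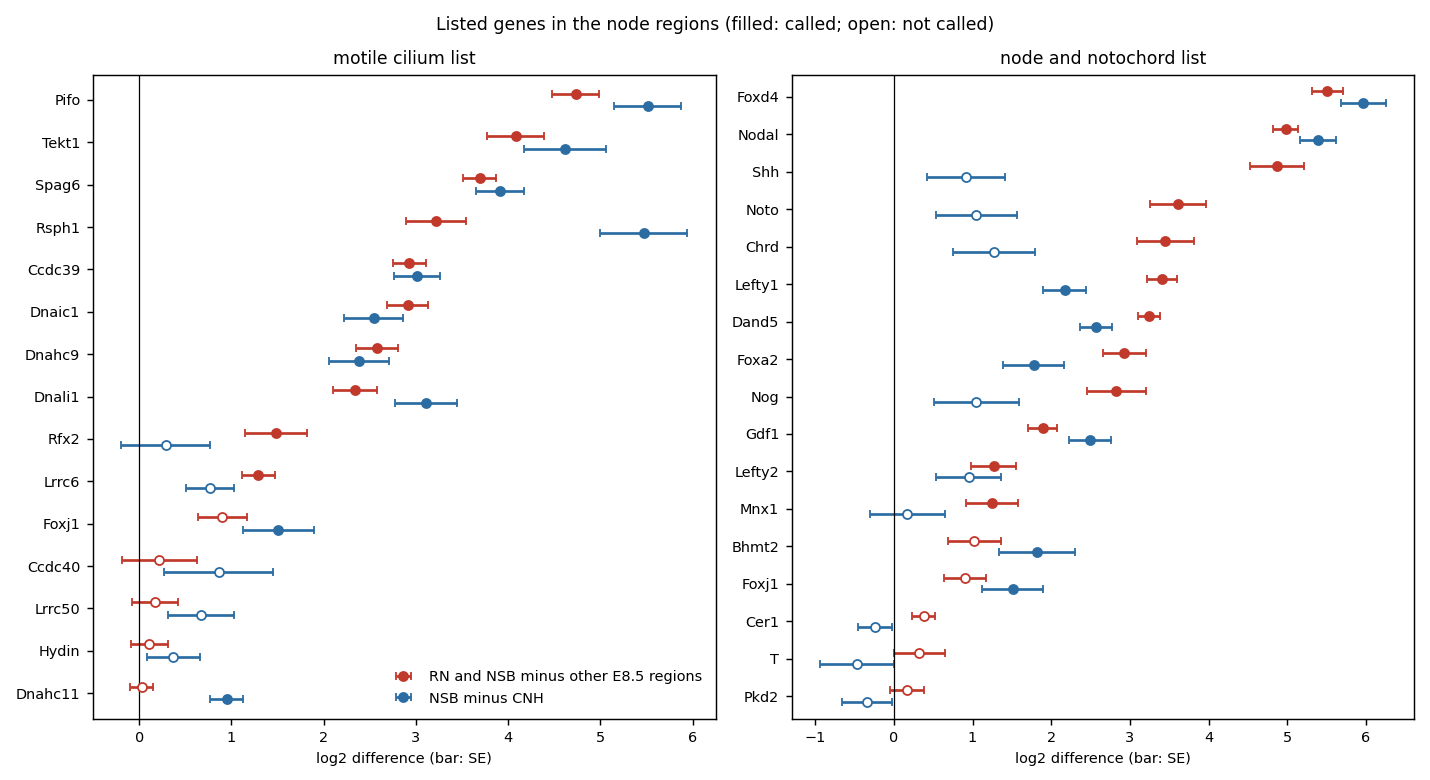
Fitted log2 difference (x axis, bar: SE) of each tested motile cilium gene (left) and node and notochord gene (right) on the y axis, for RN and NSB minus other E8.5 regions (red) and for NSB minus CNH (blue), filled where called. Pifo lies at 4.73 and 5.51, and Shh at 4.87 and 0.92.

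Markers of other tissues also differed in these contrasts, and their part in the members' values was not tested. The 5 gut endoderm markers were higher in the node regions for 4 genes (median 1.08), led by Foxa1 (2.66 ± 0.305, adjusted p = 1.31e-06), Sox17 (1.08 ± 0.16, adjusted p = 4.6e-05) and Cldn6 (1.07 ± 0.255, adjusted p = 0.0105). In NSB against CNH, 4 were higher (median 3.73), led by Trh (6.41 ± 0.251, adjusted p = 2.62e-14), Spink3 (6.40 ± 0.596, adjusted p = 4.9e-08, at least 40.3-fold) and Sox17 (3.73 ± 0.23, adjusted p = 4.94e-11). They summed to 16900, 16100 and 17600 in NSB, 16000 and 14700 in RN, 14500 and 12100 in St1, 13500 and 11800 in St5, and 3840, 6070 and 3970 in CLE. Trh was the most abundant on these arrays, except for Cldn6 on RN replicate 2 and St5 replicate 1 and Spink3 on St5 replicate 2.

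Of 4 tested somite markers, 3 were higher in the node regions (median 2.17), Meox1 (2.68 ± 0.292, adjusted p = 6.22e-07), Foxc2 (2.22 ± 0.377, adjusted p = 0.000309) and Tcf15 (2.12 ± 0.221, adjusted p = 3.1e-07), and 0 passed in NSB against CNH (1 at an unadjusted p under 0.05, median -0.03). Their sums were 836, 637 and 1100 in NSB and 1840 and 1200 in RN, with Meox1 the most abundant. Of 3 tested neural plate markers, 2 were higher in the node regions (median 1.52), Olig3 (2.60 ± 0.179, adjusted p = 3.14e-10) and Irx3 (1.52 ± 0.32, adjusted p = 0.00324), and Irx3 in NSB against CNH (1.85 ± 0.461, adjusted p = 0.00958, median of the list 1.59). Of 5 blood markers, 2 were higher in the node regions (median 1.57), Hbb-bh1 (2.44 ± 0.481, adjusted p = 0.00168) and Hba-x (2.06 ± 0.435, adjusted p = 0.00339). In NSB against CNH, 4 were lower (median -3.42), led by Hbb-y (-7.51 ± 0.422, adjusted p = 1.09e-11, at least 168-fold), Hba-x (-4.41 ± 0.627, adjusted p = 2.55e-05) and Hba-a1 (-3.42 ± 0.892, adjusted p = 0.0135).

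The 7 visceral endoderm markers had 0 calls in the node contrast in limma (1 at an unadjusted p under 0.05, median 0.35), and 2 were higher in NSB than in CNH (median 0.65), Ttr (3.11 ± 0.621, adjusted p = 0.00131, at least 4.89-fold) and Amn (2.75 ± 0.554, adjusted p = 0.00145, at least 3.60-fold). Of the 5 surface ectoderm markers, 1 was lower in the node regions (median -0.29), Grhl3 (-1.31 ± 0.316, adjusted p = 0.0122, at least 1.62-fold), and 1 was lower in NSB than in CNH (median -1.21), Trp63 (-2.16 ± 0.371, adjusted p = 0.000259, at least 1.84-fold).

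The regions had 2 or 3 arrays each, and the pools held unlike numbers of pieces. Comparisons that cross from batch 1 to the others rest on NSB replicate 3, without which they could not be fitted. A gene named as undetected may still be transcribed. The arrays measure RNA in mixtures of cells and show neither which cells held a transcript nor whether its protein was made. Each embryo was sampled at 1 stage, and a change in level with stage cannot be told apart from a change in the cells dissected.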

How the data were processed

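The deposited table holds, for each of 45281 probes and 36 arrays, the mean bead intensity (intensity on a linear scale, with background and without normalisation, as deposited) and a detection p-value (deposited, against negative-control beads). RNA had been amplified and biotin-labelled by the authors and measured on BeadChips of the Illumina type MouseWG-6 v2.0. The authors' own normalisation and batch correction are not in the table.

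Intensities were background-corrected and quantile-normalised with neqc (normexp, offset 16) in limma 3.58.1 under R 4.3.3. Tests covered the 21712 probes (15556 symbols) that 1 or more arrays detected at a p-value under 0.01, without the other 23569. All 9 member probes passed this filter. A limma model across all probes had region (16) and batch (3) as terms, with 18 residual degrees of freedom, and p-values were adjusted by Benjamini-Hochberg over all tested probes within each comparison. A call needed a fold change of 1.5 or more with an adjusted p no higher than 0.05. Tables and plots used Python 3.11.15, pandas 2.3.3, NumPy 2.4.6 and matplotlib 3.10.9.

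The members and lists were chosen with earlier results of these data known. Lists covered motile cilium, centriole amplification, cytoplasmic dynein subunits, histamine handling, Slc38 family, Tmem132 family, node and notochord, and markers of blood, visceral endoderm, gut endoderm, surface ectoderm, neural plate and somite. Named genes were all members, up to 3 genes called in each direction per list and contrast by size of difference, 5 node markers in any case, and the 3 genes most like each member by Pearson r. Each gene was read by its brightest tested probe.

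Alternatives were cyclic loess, an offset of 100, values without background correction, a model without batch, BeadChip as a random block, a replicate block, a filter on detection on every array of a region (18570 probes), no filter, each array left out in turn, and fits within a batch. No 2 arrays had identical intensities. A moderated test of the change of CNH minus P-CNH with stage was run in the same model.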

Additional observations from a re-analysis of the deposited data

How the results depend on the processing

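All 9 member probes were highest in a node region as processed and under 3 other ways of background correction or normalisation. Of 2421 member differences under alternatives, 2345 stayed on the same side of the threshold, 41 passed newly, 35 no longer passed, and 0 called values reversed. The cause was not tested for any of the changes. Within a batch, members called moved from 4 to 7 for St1 minus St5 (batch 1), 5 to 3 for A minus P (batch 2), 7 to 1 for E7.5 minus P-CNH (batch 3) and 0 to 1 for E9.5 minus later CNH (batch 2), and listed genes in NSB minus CNH from 36 to 8 (batch 3). An offset of 100 gave 4 for E7.5 minus P-CNH and 2 for St1 minus St5, and no background correction gave 2 for the latter. Leaving out each array gave 2 to 5 for St1 minus St5, 3 to 6 for A minus P, 3 to 6 for PP minus P, 0 to 0 for CNH minus P-CNH, 7 to 7 for E7.5 minus P-CNH, 0 to 1 for E9.5 minus later CNH, and 34 to 41 and 34 to 40 listed genes. A lone array was assumed to vary like the other groups. Without NSB replicate 3 the comparisons across batch 1 (E7.5 minus P-CNH, E9.5 minus later CNH and the 2 list contrasts) could not be fitted.

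With the replicate number as a block, members called were 4, 4, 5, 0, 7 and 0 in the order above, and listed genes 40 and 39. Numbers of pooled pieces matched by replicate number for E7.5 A and P (9 and 9, 13 and 13). They did not for E11.5 CNH and P-CNH (38 and 33, 29 and 65). Replicate residuals of 120 region pairs had a median r of 0.03, with 37 over 0.1, which does not establish pairing over all regions. In the 6 regions of batch 1 the median of 15 pairs was 0.18, with 8 over 0.1. There the replicate number is also the BeadChip, and pairing and BeadChip cannot be told apart. St1 minus St5, which lies in that batch, had 4 members called with the replicate block and 4 with a random block for BeadChip. A level under the lowest detected value of an array, 5.55 to 7.19 on the log2 scale, cannot be read as absence.

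Other settings changed single calls. In St1 minus St5, Dynlrb2 was lost without background correction (0.98, adjusted p = 0.121) and with the offset of 100 (0.83, 0.0722), and 1600029I14Rik with these (0.51, 0.0535 and 0.17, 0.545), with cyclic loess (0.69, 0.266) and without the batch term (0.66, 0.0509). In A minus P, Dynlrb2 passed with the BeadChip block (-1.39, 0.035), without background correction (-1.18, 0.0293) and with the offset of 100 (-1.18, 0.00328), and Hdc probe ILMN_1256122 was lost with the last of these (-0.28, 0.0301, under the fold threshold) and without background correction (-0.49, 0.0549). In PP minus P, Hdc probe ILMN_2965903 passed with cyclic loess (-3.13, 0.00401), without the batch term (-3.56, 0.00649) and with the offset of 100 (-1.64, 0.0386), Hdc probe ILMN_1256122 with cyclic loess (-1.05, 0.0165), without the batch term (-0.97, 0.0224) and under both other filters (-0.92, 0.0154 and 0.045), Tmem132e with the replicate block (-2.13, 0.0357) and Ccno with the offset of 100 (-0.79, 0.0406). In E7.5 minus P-CNH, 1600029I14Rik was lost with cyclic loess (0.58, 0.0375) and with the offset of 100 (0.33, 0.000188), and Tmem132e (0.53, 0.00601) and 1700011H14Rik (0.46, 0.00104) with the latter, each by falling under the fold threshold.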
